A study of Mus musculus with 10 samples.

Results

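The genes described here are 8 genes of the mitochondrial calcium uniporter and of the ion exchangers that work beside it in the inner mitochondrial membrane: *Mcu*, *Mcub*, *Smdt1*, *Micu2*, *Micu3*, *Mcur1*, *Letm1* and *Slc8b1*. They were chosen by symbol from the 49315 genes of the count table, and *Mcur1* had been noted because its values did not overlap between the genotypes. All 8 had enough counts to be tested, among 14714 genes in all. RNA came from the gastrocnemius of 10 male mice, whose strain background the labels give as C57BL6J. The 5 AHRfl/fl mice (AHR-floxed in the labels) carried the floxed aryl hydrocarbon receptor (AHR) gene and are described in the study as littermates without Cre. The 5 AHRmKO mice (AHR-muscle knockout) carried the same floxed gene together with a MerCreMer transgene driven by the human ACTA1 promoter, which acts in myofibres, so that the other cells of the muscle keep the AHR. Deletion in the knockout line was induced with tamoxifen at 80 mg/kg on 5 days. This was 4 weeks before smoke exposure by the labels and the study's supplement, and a shorter time before it by the main text. The methods do not say whether the AHRfl/fl mice received tamoxifen, although the study's results time the exposure of both genotypes from its delivery. Every mouse was then exposed to cigarette smoke for 16 weeks, on 5 days per week in 2 sessions of 1 h at 220 ± 80 mg/m3, and by the labels the muscle was taken 72 h after the last exposure, although the study's text also gives a wider range of times. The study calls the mice aged without a number of months in the sources used here, and air-exposed mice were not analysed here.

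Calcium released for contraction also enters the mitochondrial matrix, where it raises the activity of several dehydrogenases and so links contraction to ATP production. It enters through the uniporter, a channel whose pore is built by MCU. The small subunit EMRE, the product of *Smdt1*, joins the pore to gatekeepers of the MICU family, which sense calcium in the intermembrane space and keep the channel shut at rest. MCUB is a paralogue of MCU that enters the pore and lowers its conductance, MCUR1 is an inner-membrane protein that promotes uniporter activity, LETM1 is a cation-proton exchanger, and NCLX, the product of *Slc8b1*, returns calcium from the matrix in exchange for sodium.

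Libraries held between 30393035 and 37954388 counts, and 3 counts corresponded to between 0.079 and 0.0987 CPM, the usual scaling of counts to library size. Counts of the targeted gene, not scaled for depth, did not separate the genotypes. *Ahr* had between 43 and 110 counts in AHRfl/fl mice and between 31 and 80 in AHRmKO mice. Counts summed over the gene include exons that are not deleted. The study itself reports the deletion, in skeletal muscle only, by PCR and quantitative PCR. The RNA was that of a mainly fast muscle. The 8 fast-fibre markers summed to between 123000 and 179000 CPM over the genotypes and the 8 slow-fibre markers to between 94.8 and 2400 CPM. Macrophage, endothelial, fibroblast, Schwann and neuronal, satellite cell and adipocyte markers were also present, with overlapping sums in both genotypes. Of these, *Snap25* of the neuronal list was at 0 counts in at least 1 mouse and at 7 at most. In whole muscle, fewer cells of a type and less RNA per cell cannot be told apart. All CPM of members are scaled by the TMM-normalized library size.

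The proximal promoters of *Mcur1*, *Micu2* and *Mcu* are shown because *Mcur1* and *Micu2* were lower in every AHRmKO mouse whereas the pore gene *Mcu* overlapped between genotypes, and because the AHR binds DNA with ARNT at response elements whose core is GCGTG. Each sequence runs from 250 bases before to 50 after the RefSeq start site in GRCm38.p6, on the strand of the gene, with every GCGTG or its complement CACGC in capitals. All 3 lie on the minus strand, *Mcur1* at chr13:43560142-43560441, *Micu2* at chr14:57999213-57999512 and *Mcu* at chr10:59616643-59616942.
Mcur1: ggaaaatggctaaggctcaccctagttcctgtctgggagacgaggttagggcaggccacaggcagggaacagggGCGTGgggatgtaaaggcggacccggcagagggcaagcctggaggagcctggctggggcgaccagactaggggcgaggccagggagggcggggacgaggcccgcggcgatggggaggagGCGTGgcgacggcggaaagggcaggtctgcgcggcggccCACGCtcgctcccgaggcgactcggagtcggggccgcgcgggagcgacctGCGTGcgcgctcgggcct
Micu2: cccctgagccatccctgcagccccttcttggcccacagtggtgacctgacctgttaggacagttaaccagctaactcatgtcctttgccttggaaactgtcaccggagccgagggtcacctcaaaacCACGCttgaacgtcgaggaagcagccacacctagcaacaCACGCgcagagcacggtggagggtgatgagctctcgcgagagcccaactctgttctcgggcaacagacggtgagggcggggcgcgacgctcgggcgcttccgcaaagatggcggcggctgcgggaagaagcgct
Mcu: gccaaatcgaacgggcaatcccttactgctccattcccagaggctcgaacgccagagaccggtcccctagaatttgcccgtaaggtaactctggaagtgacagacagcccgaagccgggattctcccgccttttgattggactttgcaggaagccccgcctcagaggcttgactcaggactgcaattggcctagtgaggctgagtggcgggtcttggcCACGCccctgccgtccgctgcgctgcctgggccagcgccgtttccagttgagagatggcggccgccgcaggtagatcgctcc

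The *Mcur1* promoter held 4 cores, at -176, -57, -18 and 33 from the start site, the *Micu2* promoter held 2, at -123 and -84, and the *Mcu* promoter held 1, at -32. Promoters of *Smdt1* and *Letm1* held 2 cores each and that of *Mcub* held 0. Among 32841 mouse promoters of the same length, 32.4% held at least 1 core, 11.1% at least 2 and 1.33% at least 4, and among the 3148 with a GC content of at least 70% the share with at least 4 was 4.99%. The *Mcur1* promoter had 72.3% GC. The longer motif TNGCGTG, searched on both strands and overlapping the core, was in 0 of the 6 member promoters that the table holds and in 5.07% of all promoters. These are matches of letters and not measured binding.

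Levels of different genes were compared as CPM per kb of annotated exon. *Smdt1*, the EMRE gene (chromosome 15, from 82338959 to 82349091), was highest, at 86 ± 9.88 CPM per kb (SD, n = 10). *Micu2* (chromosome 14, from 57916261 to 57999262) followed at 18.8 ± 2.08, *Letm1* (chromosome 5, from 33739673 to 33782817) at 7.88 ± 0.491, *Mcu* (chromosome 10, from 59446984 to 59616692) at 5.49 ± 0.343 and *Mcur1* (chromosome 13, from 43538393 to 43560191) at 5.27 ± 0.818 CPM per kb. *Micu3* (chromosome 8, from 40307458 to 40386308) was at 3.7 ± 0.536, *Slc8b1* (chromosome 5, from 120511168 to 120534024) at 1.95 ± 0.426 and *Mcub* (chromosome 3, from 129914960 to 129970206) at 0.442 ± 0.173 CPM per kb. Coordinates are those of GRCm38.

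**Figure D1:**
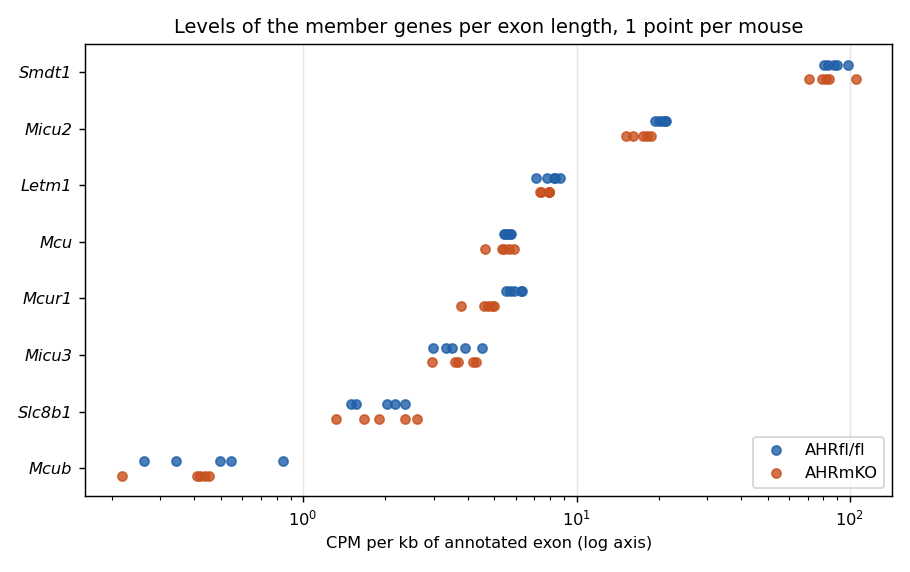
CPM per kb of annotated exon of the 8 genes on a log axis, with 1 point for each AHRfl/fl mouse and each AHRmKO mouse. *Smdt1* lies between 71 and 105 and *Mcub* between 0.217 and 0.844, and *Mcu* and *Mcur1* are the neighbours whose order differs between mice.

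Of the 7 neighbouring steps in this order, 6 held within each of the 10 mice, and the exception was *Mcu* and *Mcur1*. Per kb, *Mcur1* exceeded *Mcu* in 4 of 5 AHRfl/fl mice, whereas *Mcu* exceeded *Mcur1* in 5 of 5 AHRmKO mice. This is a description, since *Mcur1* was chosen for its values between the genotypes, and with mean levels only 1.04-fold apart it depends on the exon lengths used, 6936 nt for *Mcu* and 7076 nt for *Mcur1*. The ranges of *Mcur1* and *Micu3* over all mice also overlapped, although *Mcur1* was higher in each mouse. The gatekeeper that dominated among the 2 described here was *Micu2*, with a *Micu3* to *Micu2* ratio per kb between 0.14 and 0.234. The pore gene exceeded its inhibitory paralogue 12.4-fold per kb, and the *Mcub* to *Mcu* ratio lay between 0.04 and 0.155. *Mcu* and *Mcub* share no run of identical bases longer than 12 nt in their annotated transcripts and *Micu2* and *Micu3* none longer than 15 nt, far below the length of a read. Lengths are unions of all annotated exons, so that a muscle transcript shorter than this union would be underestimated. On the same strand, 245 nt of the 1479 exonic nt of *Smdt1* are shared with *Pheta2*, and 202 of the 6153 nt of *Micu3* lie opposite exons of *Fgf20*. Strand cannot assign a read in the part shared with *Pheta2*. In the part opposite *Fgf20* it decides the gene only if counting used strand, which the sources used here do not give.

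Between the genotypes, the members split into *Mcur1* and *Micu2*, whose groups did not overlap, and 6 genes whose groups did. Groups of this kind were found for 1.4% of all genes tested. Relative to AHRfl/fl muscle the difference was -22.8% for *Mcur1* and -16.4% for *Micu2*, against -3.66% for *Mcu*, -4.02% for *Smdt1* and -4.54% for *Letm1*. After adjustment over all genes, 0 of the 8 members passed a threshold of 0.05 (edgeR, quasi-likelihood). Without adjustment, p was under 0.05 for 1 of the 7 members other than *Mcur1*, namely *Micu2*. The background is low for the first criterion, since 1 of 14714 genes (0.0068%) was called, and the gene called was *Esr1*, part of whose sequence the MerCreMer transgene carries. For the unadjusted p it was 6.61% of genes. The DESeq2 Wald test, the tool the study names but here at an adjusted p under 0.05 alone and without the study's added fold-change cut, called 21 genes, or 0.193% of the 10858 with an adjusted p. It gave an adjusted p to 7 of the 8 members, not to *Mcub*, and called 1 of them. This was *Mcur1*, and the call supports nothing, since that gene was chosen for its values in this comparison. The median log2 fold change of the 7 members other than *Mcur1* was -0.059, against 0.0056 for all genes tested, and 5 of these 7 were below 0, against 48.5% of all genes.

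**Figure D2:**
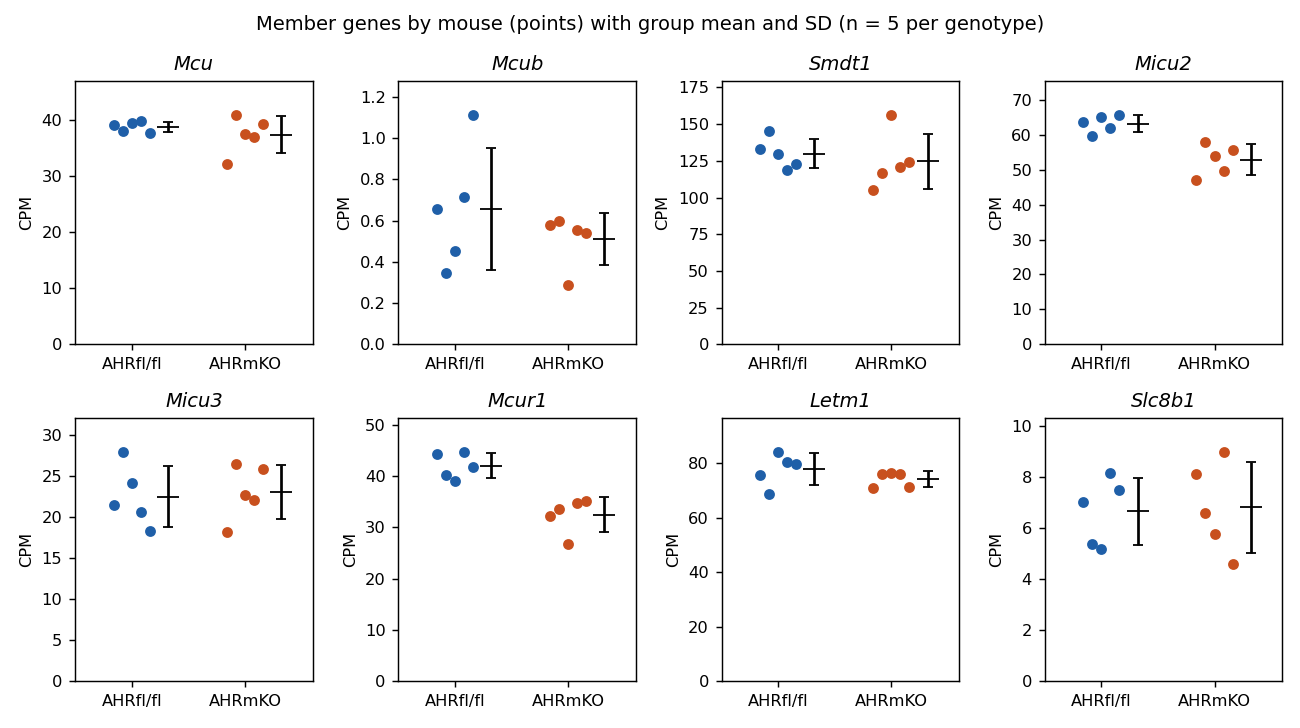
CPM of each of the 8 genes in every AHRfl/fl and AHRmKO mouse (points), with the mean and SD of each genotype (n = 5) drawn beside them on axes that start at 0. *Mcur1* and *Micu2* are the panels in which each AHRmKO mouse lies below each AHRfl/fl mouse.

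*Mcur1* (ENSMUSG00000021371) encodes the uniporter regulator. AHRfl/fl mice 11, 12, 13, 15 and 33 had 44.4, 40.3, 39, 44.7 and 41.8 CPM, and AHRmKO mice 8, 9, 19, 22 and 34 had 32.3, 33.5, 26.7, 34.7 and 35.2 CPM. The lowest AHRfl/fl mouse was thus above the highest AHRmKO mouse, and mouse 19 was the lowest of all. Means were 42 ± 2.5 CPM (SD, n = 5) and 32.5 ± 3.44 CPM (SD, n = 5), which is a difference of -0.37 on the log2 scale (standard error 0.0792, 95% interval -0.54 to -0.20). Since these values led to its choice, they are given as a description, with no p. Groups that did not overlap, with AHRmKO the lower, made up 0.714% of all genes tested. The log2 fold change stayed between -0.40 and -0.31 with each mouse left out, nearest to 0 without mouse 19. It was between -0.40 and -0.37 in the other settings, which included the slow-fibre score and the oxidative phosphorylation score as covariates. These ranges are a description too, since groups chosen because they did not overlap hardly change sign when 1 mouse is left out.

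*Micu2* (ENSMUSG00000021973) encodes a gatekeeper that binds calcium through EF hands. It was at 63.7, 59.8, 65, 61.9 and 65.6 CPM in AHRfl/fl mice 11, 12, 13, 15 and 33, and at 47, 57.9, 53.9, 49.7 and 55.7 CPM in AHRmKO mice 8, 9, 19, 22 and 34. Each AHRmKO mouse was below each AHRfl/fl mouse, with the closest approach between mouse 9 and mouse 12. Means were 63.2 ± 2.39 CPM (SD, n = 5) and 52.9 ± 4.45 CPM (SD, n = 5). This is -0.26 on the log2 scale (standard error 0.0663, 95% interval -0.40 to -0.11), and the adjusted p over all genes was 0.606 (edgeR), which does not pass the threshold. A two-sided exact permutation test of *Micu2* alone gave p = 0.00794, the smallest that 5 mice against 5 allow. Any gene whose groups do not overlap has this p, and 1.4% of all genes tested had such groups, so that it adds nothing to the values themselves. Relative to *Mcu* in the same mouse, *Micu2* was 3.66 ± 0.162 times as abundant per kb in AHRfl/fl muscle (SD, n = 5) and 3.18 ± 0.0982 times in AHRmKO muscle (SD, n = 5), with ranges of 3.5 to 3.91 and 3.02 to 3.28. The ratio of *Mcur1* to *Mcu* overlapped between the genotypes, from 0.97 to 1.12 and from 0.696 to 0.983.

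The pore genes *Mcu* and *Smdt1* and the exchanger *Letm1* overlapped between the genotypes. *Mcu* was at 39, 38, 39.4, 39.8 and 37.7 CPM in AHRfl/fl mice 11, 12, 13, 15 and 33 and at 32.2, 40.8, 37.5, 37 and 39.3 CPM in AHRmKO mice 8, 9, 19, 22 and 34. The AHRmKO mice enclosed the whole AHRfl/fl range, and mouse 8 was the lowest. The log2 fold change was -0.05 with a 95% interval of -0.20 to 0.09 (adjusted p = 0.921, edgeR). *Smdt1* ranged from 119 to 145 CPM in AHRfl/fl muscle and from 105 to 156 CPM in AHRmKO muscle, with a log2 fold change of -0.06 (95% interval -0.27 to 0.15, adjusted p = 0.947, edgeR). *Letm1* ranged from 68.8 to 84.2 CPM and from 71 to 76.4 CPM, with a log2 fold change of -0.07 (95% interval -0.21 to 0.07, adjusted p = 0.887, edgeR). Without AHRmKO mouse 8 the log2 fold changes of *Mcu* and *Smdt1* were -0.0045 and -0.0035, and without AHRmKO mouse 19 that of *Smdt1* was -0.148. That of *Letm1* was -0.1087 without AHRfl/fl mouse 12, -0.0379 without AHRfl/fl mouse 13 and -0.0177 with the oxidative phosphorylation score as a covariate. The intervals over all mice limit a difference in *Mcu* and *Letm1* to at most 0.21 on the log2 scale in either direction.

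*Mcub*, the gene of the inhibitory paralogue, had few counts. It had 23, 12, 16, 25 and 36 counts in AHRfl/fl mice 11, 12, 13, 15 and 33 and 22, 22, 10, 21 and 18 counts in AHRmKO mice 8, 9, 19, 22 and 34. The groups overlapped, with mouse 33 the highest and mouse 19 the lowest. The log2 fold change of -0.35 had a 95% interval of -1.07 to 0.36 (adjusted p = 0.886, edgeR), and without mouse 33 it was -0.08. Counting alone gives a coefficient of variation of 22.1% at the mean of 20.5 counts, and the mice of a genotype varied by 35.1%. The interval includes 0 and differences larger than the one measured. *Adgre1*, the macrophage marker, had between 11 and 80 counts in the same libraries, and over the mice *Mcub* and the macrophage score had a correlation of r = 0.18 (exact permutation p = 0.611).

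*Micu3* encodes the MICU protein known mainly from brain and skeletal muscle, and *Slc8b1* the sodium-calcium exchanger of the inner membrane. Both varied between mice more than *Mcu*, with a coefficient of variation within genotype of 15.3% and 22.9% against 5.51%. The median of the 4046 genes between 20 and 150 CPM was 8.24%, a range that holds *Micu3* and *Mcu* but not *Slc8b1*, for which counting alone gives 6.46%. *Micu3* was at 21.5, 27.9, 24.1, 20.6 and 18.3 CPM in AHRfl/fl mice 11, 12, 13, 15 and 33 and at 18.2, 26.4, 22.7, 22.1 and 25.8 CPM in AHRmKO mice 8, 9, 19, 22 and 34. *Slc8b1* was at 7.02, 5.39, 5.19, 8.18 and 7.51 CPM in the same AHRfl/fl mice and at 8.14, 6.59, 5.79, 8.99 and 4.58 CPM in the same AHRmKO mice. The genotypes overlapped almost completely in both genes. Log2 fold changes were 0.03 (95% interval -0.23 to 0.30, adjusted p = 0.979, edgeR) for *Micu3* and 0.04 (95% interval -0.36 to 0.44, adjusted p = 0.986, edgeR) for *Slc8b1*, and both changed sign in some of the alternative fits.

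**Figure D3:**
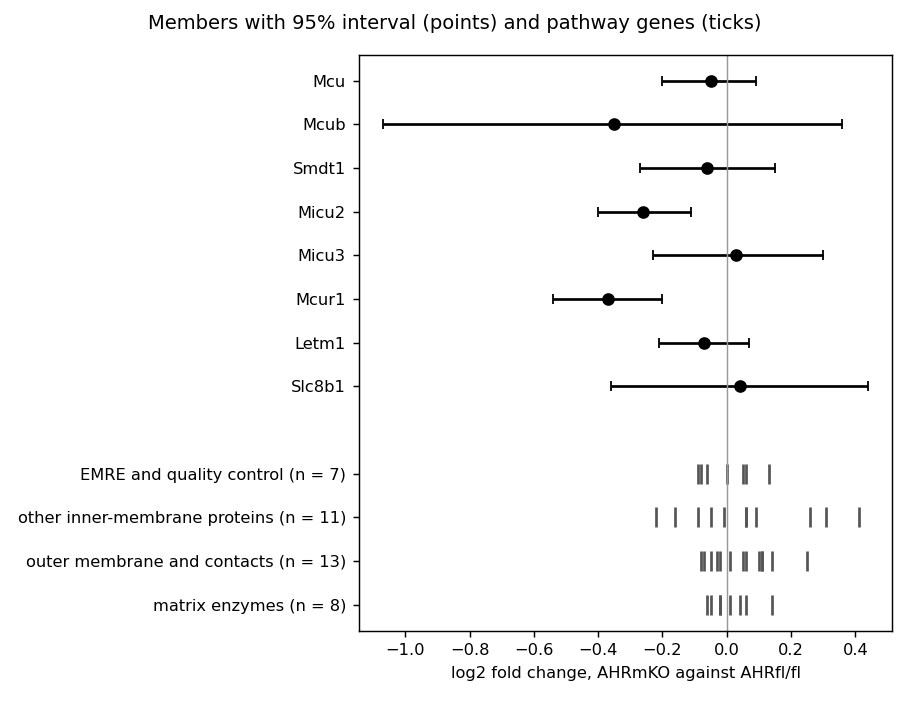
Log2 fold change of AHRmKO against AHRfl/fl muscle for the 8 genes (points with 95% intervals) and for 39 genes of the same pathway (1 tick each, in 4 lists). The interval of *Micu2* runs from -0.40 to -0.11 without adjustment for the number of genes and that of *Mcub* is the widest, while *Mcur1*, chosen for its values in this comparison, is shown as a description.

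The level of *Micu3* varied with the fibre markers of the sample. The slow-fibre score, the mean log2 CPM of 8 slow-fibre markers, ran from 2.42 in AHRfl/fl mouse 12 to 7.97 in AHRmKO mouse 8, and these mice had the highest and the lowest *Micu3*. With both measures centred on the genotype means, *Micu3* fell as the score rose, with r = -0.89 (exact permutation within genotype, p = 0.00167) and Spearman's rho = -0.93 (exact permutation p = 0.000417). Over the 24 relations of the 8 members with the slow-fibre, oxidative phosphorylation and macrophage scores, the adjusted p was 0.04 for r and 0.01 for rho, and this was the only relation of the 24 with an adjusted p under 0.05. Without AHRfl/fl mice 15 and 33, the farthest from the median of the genotype-centred score, r was -0.91. Among 14713 gene symbols, 0.632% had an r as low. The slow-fibre score also rose with the oxidative phosphorylation score (r = 0.66) and the macrophage score (r = 0.61), as a description over 10 mice. *Micu3* had r of -0.63 and -0.47 with these scores, and neither passed the correction. Whether its relation is particular to fibre markers was not tested. The slow-fibre score rose with the TMM factor of the library too, here without centring on genotype (r = 0.67 over 10 mice, as a description). Scaled by library size alone, the relation of *Micu3* with the slow-fibre score was r = -0.90. The part of this scaling factor in the relation was not tested further. The value of r stayed between -0.94 and -0.85 with any 1 mouse left out, but whichever mouse was left out the relation no longer passed, with an adjusted p between 0.05 and 0.183, and without centring it was 0.0917.

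**Figure D4:**
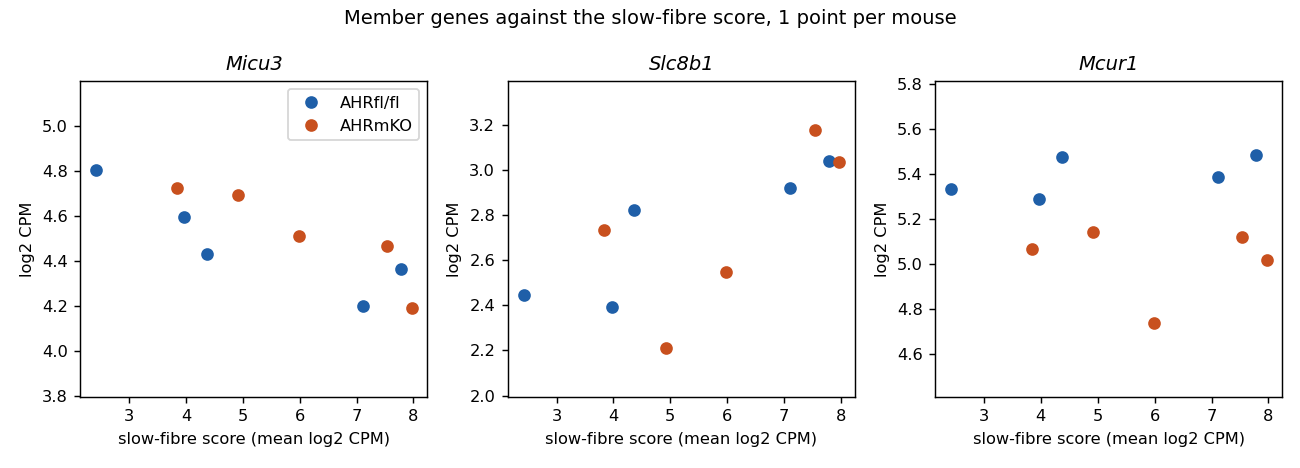
Log2 CPM of *Micu3*, *Slc8b1* and *Mcur1* against the slow-fibre score (mean log2 CPM of 8 markers), with 1 point per mouse coloured by genotype and vertical axes of equal span. *Micu3* falls along the score (r = -0.89), *Slc8b1* has r = 0.75, which did not pass the correction, and *Mcur1* has r = 0.18, its separation by genotype being what it was chosen for.

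*Slc8b1* had the opposite sign, with r = 0.75 (exact permutation p = 0.0202) and rho = 0.75 (exact permutation p = 0.0204) against the slow-fibre score, but the adjusted p was 0.162 and the relation did not pass the correction. It was r = 0.69 without the 2 farthest mice, and 5.2% of gene symbols had an r as high. *Letm1* had r = 0.71 (exact permutation p = 0.0192) and rho = 0.71 (exact permutation p = 0.0292) with the oxidative phosphorylation score, the mean of 16 nuclear genes of the respiratory chain, ATP synthase and citrate synthase. The adjusted p was 0.162, and r fell to 0.37 without AHRfl/fl mouse 12 and AHRmKO mouse 34. *Mcur1* and *Micu2* had r of 0.18 and -0.42 with the slow-fibre score (exact permutation p = 0.634 and 0.206) and of -0.33 and -0.08 with the oxidative phosphorylation score (exact permutation p = 0.397 and 0.872). Between the members themselves, 0 of 28 pairs had an adjusted p under 0.05. The closest were *Mcub* with *Smdt1* (r = -0.76, exact permutation p = 0.00806, rho = -0.84, exact permutation p = 0.00715, adjusted p = 0.194) and *Mcu* with *Micu2* (r = 0.83, exact permutation p = 0.0139, rho = 0.66, exact permutation p = 0.083, adjusted p = 0.194), and without the 2 farthest mice they were r = -0.34 and 0.45.

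The genes most like 3 of the members were named from 8799 genes of at least 5 CPM by their correlation over the 10 mice, centred on genotype and given as a description. For *Mcu* they were *Tmem70* (r = 0.96), an assembly factor of the ATP synthase, *Parm1* (r = 0.93) and *Abhd12* (r = 0.92). For *Mcub* they were *Lrp4* (r = 0.95), the agrin co-receptor of the neuromuscular junction, *Mrm1* (r = 0.95) and *Zfpm1* (r = 0.94). *Mcur1* was closest to *Mras* (r = 0.90), *Rgma* (r = 0.88) and *Cp* (r = 0.88), the gene of ceruloplasmin. No p is attached to these values, since the genes were picked as the highest of 8799, and those of *Mcub* rest on at most 36 counts.

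Of 39 other genes of the pathway, all tested, edgeR called 0 in either direction, against 0.0068% of all genes. The lowest adjusted p was 0.665. Before adjustment, p was under 0.05 for 4 of them, where the background is 6.61%. DESeq2, which called 0.193% of all genes with an adjusted p, and limma-voom also called 0 of them. With so few genes called in all, a count of 0 does not show that the pathway was unchanged. The median log2 fold change was 0.011, with 17 below and 22 above 0. Among 7 genes for the processing and quality control of EMRE and the uniporter, *Yme1l1*, an inner-membrane protease, had a log2 fold change of 0.13 (adjusted p = 0.72, edgeR) and the prohibitin gene *Phb* was at 131 ± 8.04 and 131 ± 7.62 CPM (SD, n = 5 each). Over all genes tested, groups did not overlap for 1.4% in both directions together, and for 0.714% with AHRmKO the lower. Of the 39 genes, 2 had such groups. Both belonged to the list of 11 other inner-membrane calcium and related proteins. Log2 fold changes of this list ran from -0.22 to 0.41. The highest was that of *Slc25a13*, at only 0.623 ± 0.508 and 0.819 ± 0.409 CPM (SD, n = 5 each). The 2 genes whose groups did not overlap were both higher in AHRmKO muscle. These were *Letmd1*, a relative of *Letm1* by name and domain, at 6.89 ± 0.6 and 8.23 ± 0.472 CPM (SD, n = 5 each, log2 fold change 0.26, adjusted p = 0.665, edgeR), and *Ghitm*, also known as a proton-calcium exchanger, at 450 ± 14.2 and 481 ± 12.4 CPM (SD, n = 5 each, log2 fold change 0.09, adjusted p = 0.815, edgeR).

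In the list of the outer membrane and of contacts with the reticulum, 13 genes had log2 fold changes from -0.08 to 0.25. *Rmdn3*, a tether between the organelles, had the value 0.25 (adjusted p = 0.741, edgeR), and *Vdac1*, the main outer-membrane channel, was at 1430 ± 85.4 and 1360 ± 57 CPM (SD, n = 5 each). The 8 matrix genes, for pyruvate, isocitrate and 2-oxoglutarate dehydrogenase subunits and the phosphatases of the first, had log2 fold changes from -0.06 to 0.14. They included *Pdp1*, the calcium-activated phosphatase of pyruvate dehydrogenase, at 0.14 (adjusted p = 0.874, edgeR), and *Ogdh*, of the 2-oxoglutarate dehydrogenase complex, at 839 ± 92 and 872 ± 20.3 CPM (SD, n = 5 each). No gene of this list had groups that did not overlap.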

How the data were processed

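Poly(A)-selected RNA of 10 gastrocnemius muscles was sequenced as paired-end reads. Per the labels and the study's methods, the authors used Trimmomatic 0.36 for trimming, STAR 2.5.2b for alignment to GRCm38 and featureCounts for exonic reads with a unique position. The deposited values are raw counts, 1 column per mouse. By the methods, counting used strand if the library preparation was strand-specific. Whether it was, and the Ensembl release, are not given in the sources used here.

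Names, positions and exon lengths came from GENCODE M21 (49056 of 49315 identifiers matched) and promoters from RefSeq (GRCm38.p6, 6 of the 8 members matched). The analysis of these counts used edgeR 4.0.16 under R 4.3.3. Genes passed filterByExpr (minimum count 10, minimum total 15), libraries were scaled by TMM, and the genotype term was tested by robust quasi-likelihood, with p-values of 14714 genes adjusted by Benjamini-Hochberg. Log2 CPM used a prior count of 2. For single members other than Mcur1, a two-sided exact permutation test enumerated 252 assignments, and for correlations an exact permutation within genotype enumerated 14400 arrangements. Precision is that of counts between 30393035 and 37954388 per mouse, and the floor of 3 counts covers counting error only. No 2 libraries held identical counts. As alternatives, limma-voom (limma 3.58.1) and the Wald test of DESeq2 1.42.0 were run, beside other scalings and filters, a threshold of 0.1, a prior count of 0.5, uncentred correlations, fits without robust estimation, score covariates, 1 surrogate variable (sva 3.50.0), fits without mitochondrial-genome genes, and leaving out each mouse. The fits were tested on simulated data.

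The members, gene lists and tests were chosen with earlier results of these data known. Genes named are the 8 members, in each pathway list the gene with the smallest p and the most abundant gene, markers beside a result, and the 3 genes most like Mcu, Mcub and Mcur1. *Pheta2*, *Fgf20*, *Ahr*, *Esr1* and *Slc25a13* were named because a value touches on them.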

Additional observations from a re-analysis of the deposited data

Results flagged for a closer look

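*Mcub* in AHRmKO mouse 19 lay below the other AHRmKO mice, at 0.285 CPM against 0.538 to 0.597 CPM, and its distance to the next mouse took up 0.855 of the log2 range of these 5 mice, above Dixon's critical value of 0.71. It rests on 10 counts in that mouse. Of 16 groups compared, 1 held such a sample, and chance gives about 1 in 20 groups. The same mouse was the lowest in *Mcur1* and the highest in *Smdt1*. The cause was not tested.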

How the results depend on the processing

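The number of genes called was 1 (edgeR), 21 by DESeq2, 5 with no filter beyond 1 count, 2 after adjusting for slow-fibre markers and 3 after adjusting for the oxidative phosphorylation score. It ran from 1 to 6 over the fits lacking a mouse, the highest without AHRmKO mouse 34. The log2 fold changes of *Mcu*, *Mcub*, *Smdt1* and *Letm1* stayed below 0 in the 11 other settings and with each of the 10 mice left out. So did those of *Mcur1* and *Micu2*. Since the groups of these genes did not overlap, leaving out 1 mouse could hardly turn the sign, and *Mcur1* was chosen for its values here. For *Slc8b1* the log2 fold change became -0.0809 after adjusting for the slow-fibre score and -0.0669 after 1 surrogate variable. It was 0.2021 after adjusting for the oxidative phosphorylation score, and fits lacking a mouse gave -0.0855 to 0.149. For *Micu3* it became -0.0574 after adjusting for the oxidative phosphorylation score but 0.1275 after slow-fibre markers, and fits lacking a mouse gave -0.0304 to 0.124. The adjusted p of *Micu2* was between 0.155 and 0.619 over the other settings, and fits lacking a mouse gave 0.338 to 0.994. No pathway gene was called in any of the settings. Relations with an adjusted p under 0.05 numbered 1 of 24. They numbered 2 scaled by library size only. They numbered 0 without centring on the genotype means and 0 in each fit that left out a mouse. Fewer mice leave fewer arrangements, but the part of this in the lost relation was not tested. The causes of the other changes were not tested either. No paired analysis was possible because the labels give no litter or other pairing of the mice. For *Mcub*, counting error (22.1%) and the spread between mice of a genotype (35.1%) both limit the precision.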
